A study of Mus musculus with 6 samples.

Results

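The cell cycle and proliferation genes of glomerular endothelial cells (GEC) comprised 58 genes, named one by one for their function in the cycle by a rule that sets no threshold on their values. Of the 58, 55 were read by a probeset that lists a single gene symbol, out of 19938 such genes on the array. Cdkn1a, the p21 inhibitor, lay on a probeset that also lists another symbol and was not analysed here, and Ccnb1 and Trp53 were not matched to a probeset and were not analysed here either. The level used throughout was a signal of at least 100 on the linear scale (6.64 on the log2 scale) in 3 or more arrays, and 43 of the 55 genes reached it, beside 12763 of the 19938. The 12 below it were Ccne2, Cdc6, Cdc25c, Bub1, Bub1b, Kif11, Kif20a, Kif23, Cenpe, Cenpf, Nusap1 and Ube2c. No gene among the 43 reached the level through the arrays of 1 group alone.

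GEC were sorted from 3 normal samples (genotype Tie2-GFP/ +/+) and 3 diabetic samples (genotype Tie2-GFP/ DB/DB), with 1 whole-transcript array each, all from mice 7 months old. The db/db mouse lacks a working leptin receptor and is a model of obesity, type 2 diabetes and diabetic nephropathy. Animals of both groups carried Tie2-GFP, a transgene in which the Tie2 (Tek) promoter drives green fluorescent protein in endothelium, so that GFP positive cells could be sorted from dissociated, sieved glomeruli. Tie2 is also active in some blood cells, and the sort by GFP alone does not remove these. The arrays are called normal replicates 1 to 3 and diabetic replicates 1 to 3, and every value below is a log2 signal or a difference of log2 signals, db/db minus normal.

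Division is driven by cyclins and the kinases they activate. D cyclins with CDK4 and CDK6, then cyclin E with CDK2, phosphorylate the RB family and free E2F factors, which switch on the genes of DNA replication, while a later wave of genes under MYBL2, FOXM1 and the DREAM complex carries the cell through G2 and mitosis. CDK inhibitors and p53 oppose this course. Endothelium of the adult kidney is known to be largely quiescent. In sorted bulk samples, a change in the number of cycling cells and a change in the RNA per cell cannot be told apart.

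All 10 endothelial markers reached the level, and their summed log2 level lay between 15.90 and 15.95 in the 6 arrays. Single markers differed more often than genes in general. Of the 10, 4 were higher and 3 lower in db/db with no overlap, beside 7.39% and 5.92% of all genes at the level. Among them were Cdh5 (0.21 ± 0.08) and Tek (-0.33 ± 0.12), whose promoter drives the reporter used for the sort. Neither passed the adjusted limma test. Of 10 leukocyte markers 2 reached the level, Cd68 and Cd3e, and the pan-leukocyte gene Ptprc stayed between 6.06 and 6.54. The summed leukocyte level was 9.51 to 9.64 in the normal arrays and 9.65 to 10.01 in the diabetic arrays, with the top value in diabetic replicate 1. Summed erythroid and platelet markers ran from 9.65 to 10.15 in normal and from 8.98 to 9.73 in diabetic arrays. The summed level of the podocyte markers other than Cdkn1c, itself a cell cycle gene, was 8.53 to 8.62 against 8.57 to 8.82, that of mesangial markers 8.98 to 9.59 against 9.49 to 9.60, and that of tubule markers 8.87 to 9.02 against 8.98 to 9.09. Of 12 immediate early genes, which respond to dissociation, 1 (8.33%) was higher and 2 (16.7%) were lower in db/db with no overlap. Among all genes at the level these shares were 7.39% and 5.92%. The median difference of the 12 was -0.01. Normal replicates 2 and 3 stood apart, the former with the highest value of the 6 arrays for 25.6% of all genes and the latter with the lowest for 27.1%.

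No cell cycle gene passed the test for a difference between db/db and normal GEC. Across the whole array limma called 0 of 20661 probesets at an adjusted p under 0.05 (0.0%), with 1320 probesets at an unadjusted p under 0.05, and the methods' t-test called 0 after adjustment and 1280 before it. The smallest adjusted p among the 43 genes was 0.581, for Cdk6. Among these 43 the diabetic arrays all lay above the normal arrays for 7 genes (Cdk2, Cdk6, Mcm5, Aurka, Plk1, Cdkn2a and Ccng1), or 16.3%, beside 7.39% of all genes at the level. The reverse held for 1 gene, Cdkn1c, or 2.33%, beside 5.92% of all genes. Without diabetic replicate 2 the 7 became 15, beside 13.7% of all genes. The single lower gene became 4 without normal replicate 1 (beside 10.5% of all genes), 3 without diabetic replicate 1 (9.79%) or 2 (10.6%) and 2 without normal replicate 3 (12.1%). At an unadjusted limma p under 0.05 there were 4 higher genes (Cdk6, Cdk2, Plk1 and Ccng1), beside 3.49% of all genes, and 1 lower gene (Cdkn1c), beside 3.07%.

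The median difference of the 43 genes was 0.11, beside 0.01 for all genes at the level, and 29 of the 43 had the higher mean in db/db, beside 53.7% of all genes. By role the medians were 0.07 for the G1 cyclins and kinases, 0.17 for the RB and E2F group, 0.03 for the S phase genes, 0.18 for the mitotic genes, -0.13 for the CDK inhibitors and 0.20 for the p53 pair. The median over the 43 fell to 0.03 without normal replicate 2 and was 0.05 without diabetic replicate 1. Single genes ran from -0.52 for Cdc25b to 1.23 for Cdk6.

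**Figure D1:**
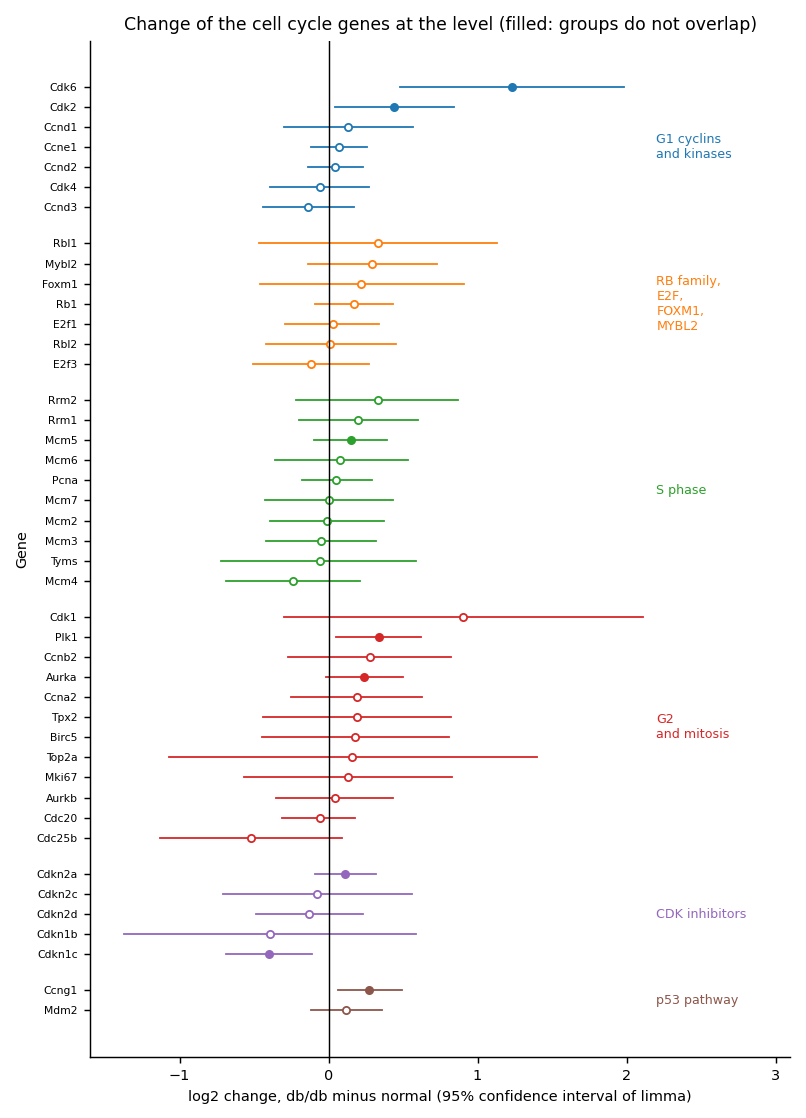
Difference in log2 signal, db/db minus normal (x axis), for the 43 cell cycle genes at the level (y axis), coloured by role, with limma's 95% confidence interval as a line. Filled points mark the 8 genes whose groups did not overlap, with Cdk6 farthest to the right at 1.23 and Cdkn1c the one filled point left of 0, at -0.40.

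Promoters of these genes carry short words through which the waves of transcription are known to be read. They were scanned from 250 bases before to 50 after the start, on both strands, for the cell cycle genes homology region CHR (TTTGAA), which the DREAM complex and MYBL2 with FOXM1 read, for CCAAT, which NF-Y reads, and for the E2F words TTTCCCGC, TTTCGCGC, TTTGCCGC and TTTGGCGC. RefSeq promoters on GRCm38.p6 were at hand for 46 of the 58 genes. CHR was found in 12 of 18 mitotic promoters (66.7%) and in 1 of 10 S phase promoters, beside 20.2% of all 27025 promoters. An E2F word was found in 5 of 10 S phase promoters and in 1 of 18 mitotic promoters (5.56%), beside 2.6% of all, and CCAAT in 16 of 18 mitotic promoters (88.9%) and 8 of 10 S phase promoters (80.0%), beside 41.1%. In all, 1 word of CHR or E2F in these genes overlapped a CCAAT. The promoters of Cdk1, Ccnb2, Plk1 and Aurka are printed as examples of mitotic genes, with CHR in capitals. The E2F word of the Cdk1 promoter is left in small letters. That of Mcm5 is printed as the S phase example, with its pair of overlapping E2F words in capitals, TTTCGCGC and, on the opposite strand, TTTGGCGC. They lie at chr10:69352863-69353162 (minus strand) for Cdk1, chr9:70421505-70421804 (minus) for Ccnb2, chr7:122159185-122159484 (plus) for Plk1, chr2:172370521-172370820 (minus) for Aurka and chr8:75109259-75109558 (plus) for Mcm5. The sequences run 5′ to 3′ along the gene. A match describes the letters only and is not evidence of binding in these cells.
Cdk1: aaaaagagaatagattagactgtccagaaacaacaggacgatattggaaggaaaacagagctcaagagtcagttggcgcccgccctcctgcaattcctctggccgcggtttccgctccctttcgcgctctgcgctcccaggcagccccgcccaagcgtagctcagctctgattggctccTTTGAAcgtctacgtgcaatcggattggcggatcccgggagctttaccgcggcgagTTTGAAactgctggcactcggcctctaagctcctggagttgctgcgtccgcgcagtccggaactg
Ccnb2: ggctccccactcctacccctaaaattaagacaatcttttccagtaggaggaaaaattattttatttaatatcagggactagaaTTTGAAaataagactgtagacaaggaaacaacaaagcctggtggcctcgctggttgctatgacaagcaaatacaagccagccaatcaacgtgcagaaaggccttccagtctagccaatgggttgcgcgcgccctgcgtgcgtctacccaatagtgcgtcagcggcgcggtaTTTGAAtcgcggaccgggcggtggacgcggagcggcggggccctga
Plk1: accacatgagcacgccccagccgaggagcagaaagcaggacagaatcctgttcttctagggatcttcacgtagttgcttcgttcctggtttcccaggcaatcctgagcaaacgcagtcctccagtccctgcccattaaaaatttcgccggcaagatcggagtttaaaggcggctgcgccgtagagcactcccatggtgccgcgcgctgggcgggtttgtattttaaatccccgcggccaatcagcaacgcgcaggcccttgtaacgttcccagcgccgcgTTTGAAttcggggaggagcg
Aurka: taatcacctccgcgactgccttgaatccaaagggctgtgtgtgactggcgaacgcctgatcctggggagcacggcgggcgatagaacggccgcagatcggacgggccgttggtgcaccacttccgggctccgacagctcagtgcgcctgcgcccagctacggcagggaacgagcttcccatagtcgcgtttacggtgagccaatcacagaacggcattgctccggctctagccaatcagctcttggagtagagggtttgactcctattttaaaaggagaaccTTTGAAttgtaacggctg
Mcm5: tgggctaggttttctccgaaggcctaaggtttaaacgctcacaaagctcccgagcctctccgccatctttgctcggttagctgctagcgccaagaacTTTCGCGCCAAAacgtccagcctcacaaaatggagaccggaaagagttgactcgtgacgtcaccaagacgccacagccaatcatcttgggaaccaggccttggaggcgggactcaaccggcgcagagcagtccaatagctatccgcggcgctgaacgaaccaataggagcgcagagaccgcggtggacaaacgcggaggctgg

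The G1 genes held the largest difference of the 43. Cdk6, the kinase partner of D cyclins, gave 7.46, 6.88 and 7.11 in the normal arrays and 8.70, 8.68 and 7.76 in the diabetic arrays. Every diabetic array lay above every normal array, with replicate 3 the closest to the normal ones. The difference was 1.23 ± 0.30 (limma SE, n = 3 per group), or 2.35-fold, with a 95% interval of 0.48 to 1.98 and an unadjusted limma p of 0.0072, but the adjusted p was 0.581. Cdk2, the kinase of cyclin E, read 7.83, 8.05 and 7.54 in normal and 8.25, 8.41 and 8.09 in diabetic arrays. These groups were also apart, though by as little as 0.04 between the nearest arrays, and the difference of 0.44 ± 0.16 (1.36-fold) had an adjusted limma p of 0.754. Cdk4, by contrast, stood at 10.63, 10.60 and 10.81 in normal and 10.84, 10.42 and 10.61 in db/db, with a difference of -0.06 ± 0.13. Its diabetic arrays spanned the whole normal range.

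Among the cyclins of G1 no groups were apart. Ccnd1, which couples growth signals to CDK4 and CDK6, gave 11.74, 11.57 and 11.88 in normal and 12.20, 11.63 and 11.76 in db/db. Diabetic replicate 1 alone lay above the normal arrays, and the difference was 0.13 ± 0.18 (limma, adjusted p = 0.93), turning to -0.03 without that array. Ccnd2 varied little, at 10.98, 11.02 and 11.02 against 11.11, 11.00 and 11.04, and differed by 0.04 ± 0.08. Ccnd3 differed by -0.14 ± 0.12 and Ccne1 by 0.07 ± 0.08, both with overlap. Ccne2 was below the level, with single arrays from 5.23 to 6.77.

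Of the RB and E2F group 7 of 7 genes reached the level, and for none were the groups apart. Rb1, the pocket protein that holds E2F in check, read 10.42, 10.19 and 10.38 in normal and 10.39, 10.60 and 10.51 in diabetic arrays. Its difference of 0.17 ± 0.11 had an adjusted limma p of 0.843. E2f3, an activating E2F, read 9.41, 8.88 and 8.97 against 9.03, 8.98 and 8.88. Normal replicate 1 held the top value, and the difference of -0.12 ± 0.16 became 0.04 without it. E2f1, near the level at 6.97, 6.75 and 6.63 against 6.97, 6.70 and 6.76, differed by 0.03 ± 0.13. The related pocket proteins differed by 0.33 ± 0.32 (Rbl1) and 0.01 ± 0.18 (Rbl2), and the factors of the mitotic wave by 0.22 ± 0.28 (Foxm1) and 0.29 ± 0.18 (Mybl2). The group's median of 0.17 was 0.02 without normal replicate 2.

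The S phase genes were centred near no difference, 10 of 11 of them at the level. Pcna, the sliding clamp of DNA polymerase, gave 11.89, 11.72 and 11.96 in normal and 11.95, 11.86 and 11.93 in db/db. All diabetic values fell inside the normal range, with a difference of 0.05 ± 0.09 and a 95% interval of -0.18 to 0.29. Both of its probesets gave that difference, but their signals were at most 0.02 apart in any array, so the second adds little to the first. Mcm5, a subunit of the replicative helicase, was the one S phase gene whose groups were apart, at 7.74, 7.74 and 7.62 against 7.99, 7.75 and 7.81. The nearest arrays differed by less than 0.01, and the difference of 0.15 ± 0.10 had an adjusted limma p of 0.859. The other helicase subunits went both ways, from -0.24 ± 0.18 (Mcm4) through -0.05 ± 0.15 (Mcm3), -0.01 ± 0.15 (Mcm2) and 0.00 ± 0.18 (Mcm7) to 0.08 ± 0.18 (Mcm6), all with overlap.

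Of the genes that make DNA precursors, Rrm1, the large subunit of ribonucleotide reductase, read 9.05, 8.82 and 9.10 in normal and 8.89, 9.35 and 9.33 in db/db. Diabetic replicates 2 and 3 were above the normal arrays and replicate 1 was among them, a difference of 0.20 ± 0.16 that was 0.35 without diabetic replicate 1, 0.13 without diabetic replicate 3 and 0.12 without normal replicate 2 or diabetic replicate 2. Its partner Rrm2 differed by 0.33 ± 0.22 and Tyms, thymidylate synthase, by -0.06 ± 0.26. Cdc6, which loads the helicase, was below the level at 5.51 to 6.14.

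Of the mitotic genes 12 of 22 were at the level, with means between 6.82 and 7.94. Their median difference of 0.18 was 0.06 without normal replicate 2, 0.07 without diabetic replicate 1 and 0.36 without diabetic replicate 2. Cdk1, the kinase that starts mitosis, gave 7.14, 6.68 and 6.78 in normal and 8.62, 6.72 and 7.99 in diabetic arrays. Diabetic replicates 1 and 3 were above all normal arrays and diabetic replicate 2 was among them. The difference of 0.90 ± 0.49 had a 95% interval of -0.30 to 2.11 and an adjusted limma p of 0.831, and the SD was 0.24 in normal and 0.97 in diabetic arrays. The difference was 0.48 without diabetic replicate 1 and 1.43 without diabetic replicate 2.

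Top2a, the topoisomerase that untangles chromosomes, read 7.40, 7.07 and 7.34 in normal and 8.46, 6.45 and 7.39 in db/db. The diabetic arrays held both the highest and the lowest of the 6 values. The difference was 0.16 ± 0.50 and the SD 0.18 against 1.01, while a second probeset of the gene, with values of 4.31 to 5.07, gave -0.24 ± 0.21. Mki67, which encodes the Ki-67 antigen of cycling cells, read 7.05, 6.69 and 6.94 against 7.63, 6.62 and 6.82. Again diabetic replicate 1 was highest and diabetic replicate 2 lowest, with a difference of 0.13 ± 0.28 (limma, adjusted p = 0.96). Without diabetic replicate 1 the difference was -0.35 for Top2a and -0.17 for Mki67.

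For 2 mitotic kinases at the level the groups were apart. Plk1, which acts at centrosomes and in mitotic exit, gave 6.84, 6.72 and 7.00 in normal and 7.31, 7.06 and 7.22 in db/db. All diabetic arrays were higher, by 0.34 ± 0.12 (1.26-fold, 95% interval 0.05 to 0.62), with an adjusted limma p of 0.739. Aurka, the centrosomal Aurora kinase, read 7.09, 6.93 and 6.89 against 7.20, 7.34 and 7.10. Its nearest arrays were 0.01 apart, and the difference was 0.24 ± 0.10 (limma, adjusted p = 0.785). Aurkb, the Aurora kinase of the chromosomal passenger complex, differed by 0.04 ± 0.16 and its partner Birc5 by 0.18 ± 0.25.

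**Figure D2:**
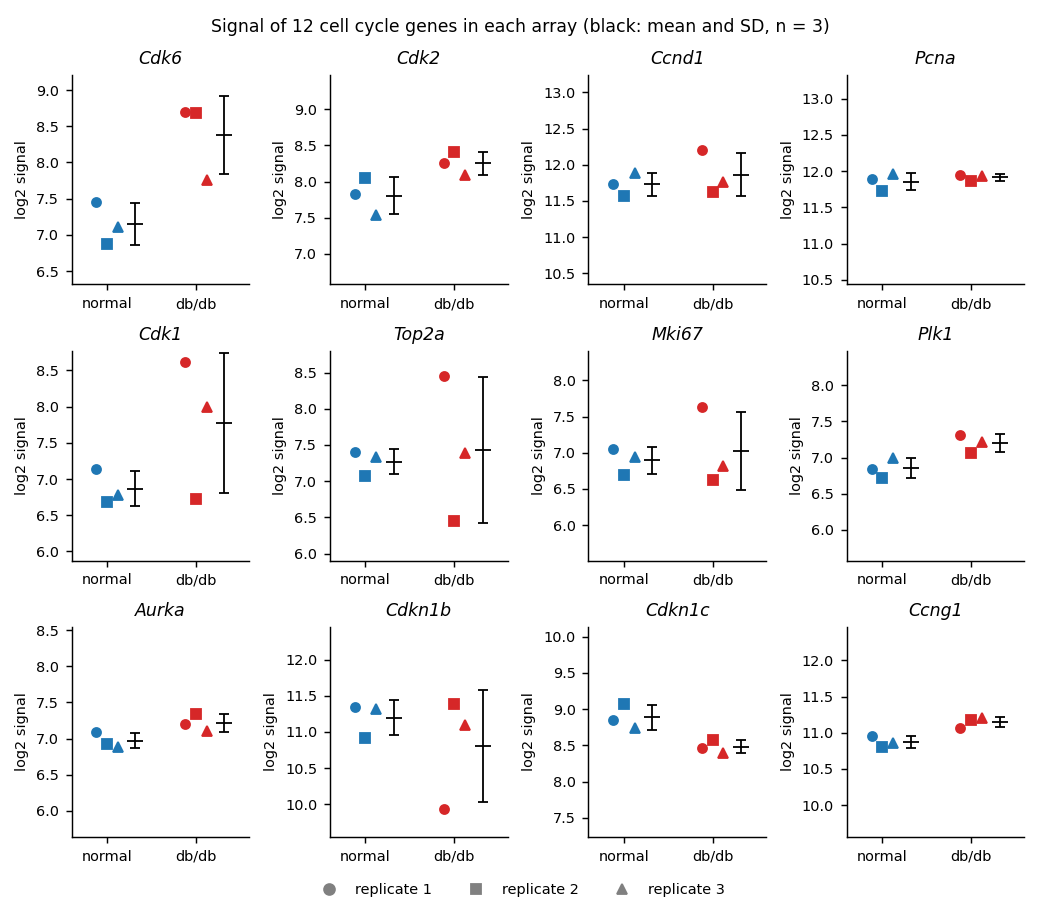
Log2 signal (y axis) of 12 cell cycle genes in each array, normal in blue and db/db in red, with the marker shape for the replicate number and the mean and SD of 3 arrays in black; every panel spans the same log2 range. Cdk6, Cdk2, Plk1, Aurka and Ccng1 have all red points above the blue ones and Cdkn1c below them, whereas Cdk1, Top2a and Mki67 have diabetic replicate 1 on top and diabetic replicate 2 among or below the normal arrays.

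The mitotic cyclins and the phosphatase that frees CDK1 went different ways. Ccnb2, a cyclin of CDK1, read 6.90, 6.65 and 6.96 in normal and 7.49, 6.69 and 7.15 in db/db, a difference of 0.28 ± 0.22. Ccna2, the S and G2 cyclin, read 6.82, 6.62 and 6.76 against 7.08, 6.55 and 7.13 and differed by 0.19 ± 0.18. Diabetic replicates 1 and 3 were above the normal arrays for both. Cdc25b, which removes the inhibitory phosphates of CDK1, had the lowest difference of the 43, with 7.69, 8.28 and 8.62 in normal and 7.59, 7.83 and 7.62 in db/db. Diabetic replicate 2 lay above normal replicate 1, and the difference of -0.52 ± 0.24 had an adjusted limma p of 0.812. It was -0.77 without normal replicate 1 and -0.31 without normal replicate 3. Cdc20, an activator of the anaphase complex, read 7.28, 7.55 and 7.43 against 7.40, 7.28 and 7.37, a difference of -0.06 ± 0.10 that was 0.0 without normal replicate 2. Tpx2, a spindle assembly factor, differed by 0.19 ± 0.25.

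The 10 mitotic genes below the level ran from 4.98 to 6.87 in single arrays, and no test is given for them. Just under it lay Kif20a, a kinesin of cytokinesis, at 6.62, 6.47 and 6.50 in normal and 6.87, 6.62 and 6.62 in db/db. Nusap1, a spindle protein, read 6.45, 6.49 and 6.43 against 6.80, 6.17 and 6.52. Ube2c, an enzyme that marks mitotic cyclins for destruction, read 6.58, 6.51 and 6.60 against 6.73, 6.59 and 6.47. Their diabetic arrays were on both sides of the normal ones for the latter pair. Cenpf, a kinetochore protein named after its values were seen, had its groups apart at 6.19, 5.96 and 6.08 against 6.83, 6.32 and 6.43.

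The mitotic genes varied more among the diabetic arrays than among the normal ones, a pattern noticed after the values were seen and given as a description. Of the 22 genes 12 (54.5%) had their highest value in diabetic replicate 1, beside 17.0% of all genes, and 9 (40.9%) had their lowest in diabetic replicate 2, beside 14.3%. Diabetic replicate 1 exceeded diabetic replicate 2 for 20 of 22, by a median of 0.53, beside 50.7% of all genes. The SD over 3 arrays was larger in db/db than in normal for 15 of 22 (68.2%), with a median of 0.29 against 0.15, while it was larger for 42.3% of all genes. In the 10054 genes whose mean lay in the range of the mitotic ones, the shares were 17.2%, 14.3%, 52.6% and 42.4%. The low end was shared with a normal array, as normal replicate 2 held the lowest value for 8 of the 22, beside 16.7% of all genes. Relative to each gene's own mean over the 6 arrays, the median over the 22 was -0.03, -0.20 and -0.01 in the normal arrays and 0.30, -0.24 and 0.07 in the diabetic arrays. The 22 values of 1 array share its RNA and are not replicates.

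In a separate list of 50 measured mitotic genes outside the 58, 32 (64.0%) were highest in diabetic replicate 1. The low end was shared there too, with 17 (34.0%) lowest in diabetic replicate 2 and 16 in normal replicate 3. Diabetic replicate 1 exceeded diabetic replicate 2 for 43 of 50. The S phase genes were highest in diabetic replicate 1 for 5 of 11 (45.5%), and a separate list of other S phase genes for 13 of 31 (41.9%). Of the G1 genes 6 of 8 (75.0%) were highest there. Of the 12 measured mitotic genes with CHR in the promoter 9 were highest in diabetic replicate 1, and of the 5 in the promoter table without CHR 1 was. These counts are few, describe a pattern already seen and lack the share of all genes with CHR. A link to CHR was not tested.

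Leukocyte markers, 8 of 10 of them below the level, followed this pattern only in part. Their summed level in diabetic replicate 2 was above the normal arrays. That of the 22 mitotic genes was 11.07 there, below the 11.14 to 11.36 of the normal arrays. By the median deviation, diabetic replicate 2 was the lowest array for both lists, at -0.11 and -0.24. Of the 10 markers 6 were highest in diabetic replicate 1 and 5 lowest in diabetic replicate 2, and the summed level was 9.51, 9.64 and 9.57 in the normal arrays and 10.01, 9.67 and 9.65 in the diabetic arrays. The median deviation of the 10 from their own means was -0.06, 0.03 and -0.04 in the normal arrays and 0.15, -0.11 and 0.00 in the diabetic arrays. Cd68, a marker of macrophages, read 6.63, 6.72 and 6.81 against 7.95, 7.59 and 6.91. Lyz2, lysozyme of myeloid cells, was below the level by the 3-array rule and read 6.21, 6.19 and 6.63 against 7.41, 6.82 and 6.61. Both were highest in diabetic replicate 1. Others went another way, with Cd3e highest in normal replicate 2 (7.59) and Cd79a, below the level, lowest in diabetic replicate 1 (4.99). The macrophage genes Adgre1, Csf1r and Itgam were below the level in all 6 arrays. The part of leukocytes in the mitotic values was not tested.

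**Figure D3:**
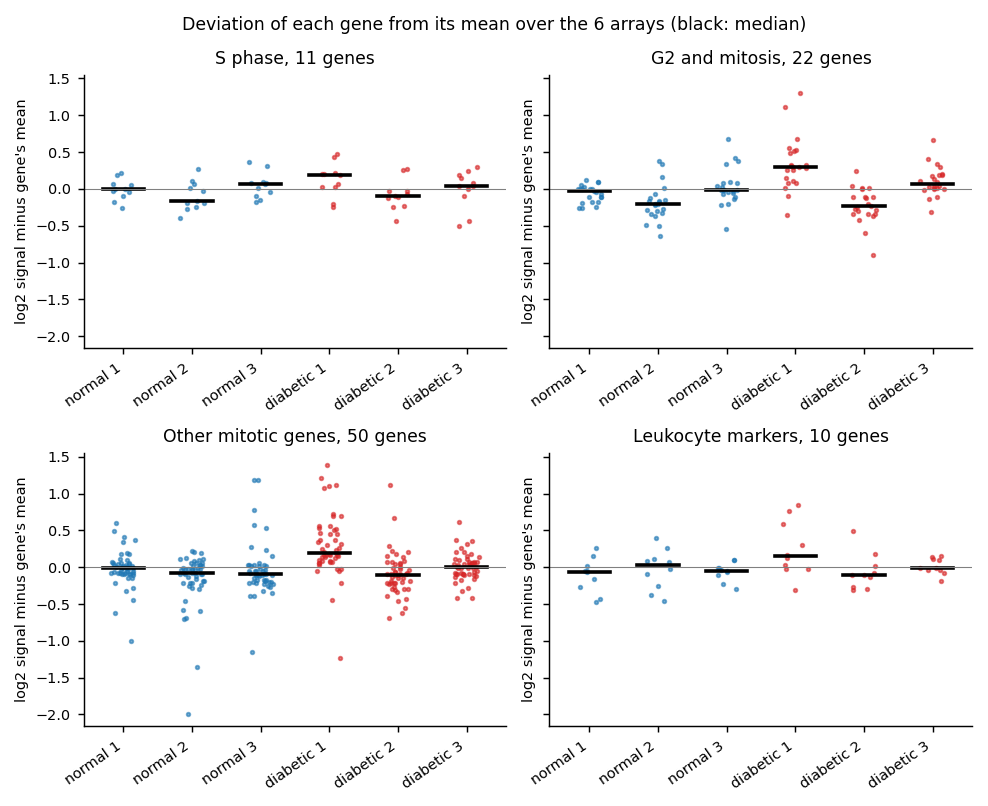
Log2 signal minus the gene's mean over 6 arrays (y axis) by array (x axis), 1 point a gene and a black bar for the median, for S phase genes, mitotic genes, other mitotic genes and leukocyte markers. The mitotic median is 0.30 in diabetic replicate 1 and -0.24 in diabetic replicate 2, wider apart than the normal arrays at -0.03, -0.20 and -0.01.

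**Figure D4:**
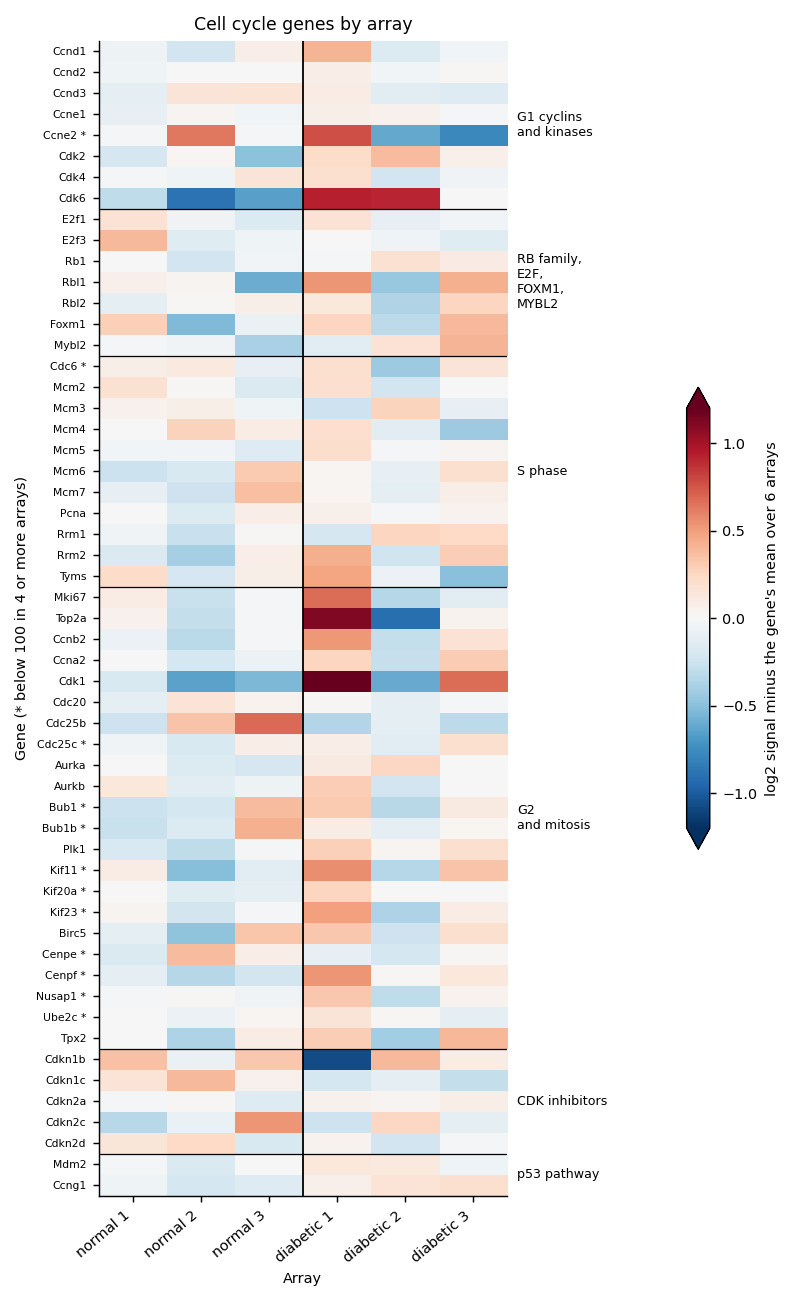
Log2 signal minus the gene's mean over 6 arrays (colour, red above and blue below, full colour from 1.2 either way) for the 55 measured cell cycle genes (rows, by role) in each array (columns, normal left of the line), with a star on the 12 genes below the level. In the mitotic block the column of diabetic replicate 1 is mostly red, and those of diabetic replicate 2 and normal replicate 2 are mostly blue. Cdk6 is red in diabetic replicates 1 and 2.

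The CDK inhibitors had a median difference of -0.13 over 5 measured genes, all at the level, and it was 0.03 without diabetic replicate 1 and -0.26 without normal replicate 1 or 3. Cdkn1c, or p57, which holds differentiated cells out of the cycle, gave 8.85, 9.07 and 8.74 in normal and 8.47, 8.58 and 8.40 in db/db. All diabetic arrays were below all normal ones, by 0.16 at the nearest. The difference of -0.40 ± 0.12 (95% interval -0.69 to -0.11, 1.32-fold lower) had an unadjusted limma p of 0.0145 and an adjusted p of 0.677. In the glomerulus p57 is known as a podocyte protein, and the podocyte genes Nphs1, Synpo and Wt1 differed by 0.06 ± 0.11, 0.24 ± 0.16 and 0.08 ± 0.07. These had the higher mean in db/db, where Cdkn1c had the lower one.

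Cdkn1b, or p27, a broad inhibitor of cyclin E with CDK2, gave 11.35, 10.92 and 11.32 in normal and 9.93, 11.39 and 11.09 in db/db. Diabetic replicate 1, the array with the highest mitotic values, held the lowest value by far, while replicate 2 lay just above the normal range and replicate 3 within it. The difference of -0.39 ± 0.40 (limma, adjusted p = 0.903) was 0.04 without that array. A second probeset of Cdkn1b read 9.73, 9.65 and 9.75 against 9.28, 10.12 and 9.42, with diabetic replicate 1 again lowest. Cdkn2a, the INK4A and ARF locus of senescence, read 7.28, 7.31 and 7.14 against 7.35, 7.33 and 7.38. Its groups were apart by 0.03 at the nearest, with a difference of 0.11 ± 0.08 (limma, adjusted p = 0.873). The other INK4 genes differed by -0.08 ± 0.26 (Cdkn2c) and -0.13 ± 0.15 (Cdkn2d).

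Both measured genes of the p53 pathway are targets of p53 that restrain it or the cycle. Ccng1, cyclin G1, gave 10.96, 10.80 and 10.86 in normal and 11.07, 11.17 and 11.20 in db/db. All diabetic arrays were higher, by 0.27 ± 0.09 (1.21-fold, 95% interval 0.06 to 0.49), with an unadjusted limma p of 0.0197 and an adjusted p of 0.696. Mdm2, the ubiquitin ligase that degrades p53, read 9.72, 9.56 and 9.74 against 9.86, 9.85 and 9.68. Diabetic replicate 3 lay among the normal arrays, and the difference was 0.12 ± 0.10 (limma, adjusted p = 0.877).

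Of 21 other measured p53 targets 19 reached the level, and none passed the adjusted test. The groups were apart with db/db higher for 5 of the 19 (26.3%), Sesn2, Phlda3, Trp53inp1, Fas and Plk2, and lower for 1 (5.26%), Btg2, beside 7.39% and 5.92% of all genes, and the median difference was 0.19. At an unadjusted limma p under 0.05 there were 5 higher genes, Tnfrsf10b in place of Fas, and again Btg2 lower, beside 3.49% and 3.07%. Sesn2 reached the level through its diabetic arrays alone and so had to differ. Without it 4 of 18 were higher by either count, with a median difference of 0.17. Phlda3, an inhibitor of AKT signalling, gave 8.93, 8.46 and 8.62 in normal and 9.25, 9.48 and 9.19 in db/db, a difference of 0.64 ± 0.15 (limma, adjusted p = 0.572). Trp53inp1, a p53 cofactor, read 9.28, 9.16 and 9.45 against 10.05, 9.54 and 9.86 and differed by 0.52 ± 0.16 (limma, adjusted p = 0.684). Sesn2, a stress-induced regulator of mTORC1, read 6.60, 6.62 and 6.52 against 7.04, 6.88 and 7.01, a difference of 0.40 that is given with no test. For Phlda3 and Trp53inp1 all diabetic arrays lay above the normal ones, by 0.26 and 0.08 at the nearest.

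Tnfrsf10b, a TRAIL death receptor, read 7.21, 6.96 and 7.68 in normal and 8.57, 8.55 and 7.62 in db/db, with diabetic replicate 3 inside the normal range, and differed by 0.96 ± 0.32 (limma, adjusted p = 0.727). Plk2 and Fas, named after their values were seen, each differed by 0.29, with SE 0.12 and 0.17. Btg2, an antiproliferative gene that growth signals also induce, read 10.12, 10.48 and 10.08 against 9.79, 9.98 and 9.74, a difference of -0.39 ± 0.14 (limma, adjusted p = 0.754). All its diabetic arrays were below the normal ones.

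**Figure D5:**
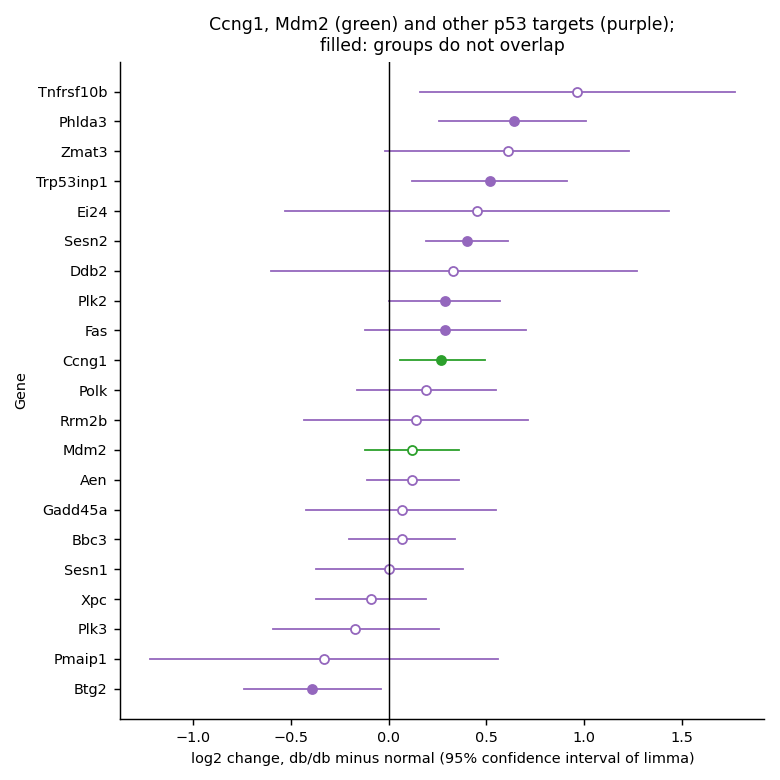
Difference in log2 signal, db/db minus normal (x axis), of Ccng1 and Mdm2 (green) and of the 19 other p53 targets at the level (purple), with limma's 95% confidence interval as a line and filled points where the groups did not overlap. Of the 19 purple points 14 lie right of 0, up to 0.96 for Tnfrsf10b, and Btg2 is the filled point on the left at -0.39; Sesn2 reached the level through its diabetic arrays alone.

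Other genes of the cycle outside the 58 were counted in the same way, beside the 7.39% higher and 5.92% lower of all genes. Of 18 other G1 and RB genes at the level 0 were higher and 1 (5.56%) lower with no overlap, and their median difference was -0.03. The lower one was Tfdp1, the DNA-binding partner of E2F, at 10.23, 10.28 and 10.18 against 10.09, 9.83 and 9.94, a difference of -0.28 ± 0.10 (limma, adjusted p = 0.751). Myc, which drives Cdk4 and cyclin genes and was named after its values were seen, was below the level in normal GEC at 5.60, 5.74 and 5.51 and read 7.23, 7.36 and 6.12 in db/db, with no test since fewer than 3 arrays reached the level.

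Of 20 other S phase genes at the level 2 were higher and 1 lower with no overlap, with a median difference of 0.07. Cdc45, a helicase cofactor, read 6.97, 6.76 and 6.71 in normal and 7.61, 7.20 and 7.64 in db/db, a difference of 0.67 ± 0.15 (limma, adjusted p = 0.558). Tk1, thymidine kinase, read 8.56, 8.30 and 8.26 against 9.44, 8.89 and 8.70 and differed by 0.64 ± 0.21 (limma, adjusted p = 0.719). That was 0.42 without diabetic replicate 1, and a second Tk1 probeset, at 7.26, 7.47 and 7.17 against 7.56, 7.25 and 7.36, differed by 0.09, so that the mean of both gave 0.36. Chaf1b, a subunit that assembles chromatin on new DNA, went the other way, at 8.24, 8.54 and 8.26 against 8.06, 7.58 and 7.30, by -0.70 ± 0.21 (limma, adjusted p = 0.684). Of 24 other mitotic genes at the level 4 (16.7%) were higher (Cit, Ckap2l, Cks1b and Tacc3) and 1 (4.17%) lower (Nek2) with no overlap, none of them at an unadjusted limma p under 0.05, and the median difference was 0.12.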

How the data were processed

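RNA of Tie2-GFP positive GEC was measured on 6 arrays (3 normal, 3 diabetic), and groups were taken from the sample labels. The deposited values are log2 probeset signal. By their methods the authors normalised with RMA (GeneSpring), but MAS5 is the tool that their processing notes give. They ran from 3.18 to 14.46 with array medians of 7.00 to 7.04, and no further normalisation was applied. Each difference is therefore relative to the other probesets of the array. For arrays, their number limits the precision. Of 35557 probesets the annotation gave 21789 a single symbol, 1621 several and 12147 none. The level was a linear signal of 100 or above in 3 arrays, and the 20661 probesets that met it were tested with limma 3.58.1 (R 4.3.3; lmFit and eBayes, two-sided, Benjamini-Hochberg over all 20661, threshold 0.05). The labels call the replicates biological, and p-values measure the spread between these samples. A gene was given by its probeset with the highest mean, and signals of different genes were not compared.

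Members and gene lists were chosen with earlier results of these data known. Values in every array are given for the 2 members of each role with the highest mean, members whose groups do not overlap or with an unadjusted p under 0.05, Mki67, Top2a, Cdk1, Pcna, Ccnd1 and Cdkn1c, members within 0.25 of the level, and up to 4 other pathway genes a list and direction at an unadjusted p under 0.05. Marker lists were endothelial, leukocyte, erythroid and platelet, podocyte, mesangial, tubule and immediate early. Alternatives were quantile normalisation, median centring, no level or a level of 200, array weights, the replicate number as a block, an intensity trend with a robust prior, the methods' t-test, 1 probeset a gene, averaged probesets of a gene and leaving out each array. The fit was first tested on simulated data. Python 3.11.15 with matplotlib 3.10.9 drew the figures.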

Additional observations from a re-analysis of the deposited data

How the results depend on the processing

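Of 32 named genes at the level 24 kept their direction in every setting run, and no setting brought any of them past an adjusted p of 0.05. Many of the 24 were named because their groups do not overlap. Leaving out 1 array cannot turn the direction of such a gene, so the count of 24 was in part set in advance. Leaving out 1 array at a time, the differences of the other 8 crossed 0 or reached it. They ran from -0.03 to 0.25 for Ccnd1, -0.05 to 0.12 for E2f1, -0.22 to 0.04 for E2f3, -0.01 to 0.11 for Pcna, -0.17 to 0.34 for Mki67, -0.35 to 0.66 for Top2a, -0.13 to 0.0 for Cdc20 and -0.69 to 0.04 for Cdkn1b. E2f1 also turned to -0.03 with array weights. The end below 0 for Ccnd1, Mki67 and Top2a, and that above 0 for Cdkn1b, came without diabetic replicate 1. Cdk6 kept 1.06 to 1.54 over all settings (adjusted limma p 0.41 to 0.89), Cdk1 0.48 to 1.43 and Cdkn1c -0.48 to -0.31.

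With 1 probeset a gene (12763 tested) limma called 1 gene, Scn7a, which is no cell cycle gene (-2.65, adjusted p = 0.0336). A level of 200 kept 25 cell cycle genes. Cdk6, among these, passed that level through its diabetic arrays alone and so had to differ. No count of genes without overlap is given at that level, as the share of all genes was not taken there. Leaving out 1 array, the number higher with no overlap ran from 8 to 15, the last without diabetic replicate 2, beside 11.7% to 13.7% of all genes, and the number lower from 1 to 4, with 4 without normal replicate 1, 3 without diabetic replicate 1 or 2 and 2 without normal replicate 3, beside 9.79% to 12.1%. The inhibitor median was 0.03 without diabetic replicate 1 and -0.26 without normal replicate 1 or 3. The causes were not tested. Same-numbered arrays of the groups did not deviate together (r = -0.004, 0.035 and -0.03), and with the replicate number as a block limma called 0 probesets, 1287 at an unadjusted p under 0.05. Many mitotic genes lie near or below the level, which limits what can be read from them.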
